A study of Arabidopsis thaliana with 6 samples.

Results

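The genes described here are 10 WRKY transcription factors of Arabidopsis thaliana known for their induction by stress: WRKY6, WRKY11, WRKY18, WRKY22, WRKY33, WRKY40, WRKY46, WRKY53, WRKY60 and WRKY70. They were taken by locus from a table of 27826 rows, 1 row per locus, in which 72 rows carry a WRKY name, so 62 other family genes were measured on the same arrays. The 10 were chosen by their family name and by their deposited nuclear and cellular intensities on these arrays, which were already known. Their difference between nuclear and cellular RNA is therefore given as a description, with no test and no p-value.

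WRKY proteins bind DNA at a short element called the W-box, which is common in promoters of defence genes, their own promoters included. In leaves and seedlings many of them are transcribed within minutes of wounding, of contact with a pathogen or of treatment with a microbial elicitor, downstream of mitogen-activated protein (MAP) kinase cascades. The family is divided into groups by the number of WRKY domains and the type of zinc finger. The 10 genes come from 6 of these groups: WRKY33 from group I, WRKY18, WRKY40 and WRKY60 from group IIa, WRKY6 from IIb, WRKY11 from IId, WRKY22 from IIe, and WRKY46, WRKY53 and WRKY70 from group III.

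RNA was measured on 6 microarrays of whole embryos at the 16-cell stage, taken 72 h after hand pollination from plants kept at 22 °C in a cycle of 16 h light and 8 h dark. For 3 arrays, called nuclear here, nuclei were captured from embryos with INTACT, a method that biotinylates a nuclear envelope tag in chosen cells and then pulls down their nuclei, with a marker active in the whole embryo. For the other 3 arrays, called cellular, intact embryos were picked out with a micromanipulator, and total RNA was used. Both sets of 3 are labelled as biological replicates. The labels name no strain and no promoter for the INTACT tag. How the material was isolated and which RNA it holds differ together between the groups, so the effects of these cannot be told apart. In such bulk samples fewer cells of a type and less RNA per cell cannot be told apart either.

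The median of each array fell in the range 2.46 to 2.68 in log2 RMA intensity (RMA is the background correction, normalization and probe summary run by the authors), and there are no detection calls. A level near or below those medians is dim, and a fold against it is compressed. The 3 arrays of a group limit the precision. Of 27241 loci matched to a gene table and fitted with limma (two-sided test, p adjusted by Benjamini-Hochberg, threshold 0.05), 313 were higher and 1284 lower in nuclear RNA, and the median log2 difference of all genes was 0.13. The embryo label was checked against 15 embryo regulators: 8 were lower and 0 higher in nuclear RNA, and their median was 5.50 to 6.60 on the cellular arrays and 2.24 to 2.82 on the nuclear arrays, with summed linear intensities of 807 to 1904 and 217 to 317. The defining embryo genes WOX2, WOX8 and LEC1 were thus above the array median on every cellular array but lay between 2.09 and 3.11 on the nuclear arrays, near the array medians.

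The clearest separation was seen in the group IIa pair WRKY18 and WRKY40, closely related proteins that bind each other and together restrain basal defence. WRKY18 (AT4G31800_at) measured 6.95, 7.53 and 8.51 in nuclear RNA (replicates 1 to 3) against 3.81, 3.85 and 4.66 in cellular RNA (replicates 1 to 3). Every nuclear array was above every cellular one, with a gap of 2.29 on the log2 scale between the nearest arrays. The group means were 7.66 ± 0.79 and 4.11 ± 0.48 (SD, n = 3 each), a log2 difference of 3.55 or 11.7-fold.

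WRKY40 (AT1G80840_at) measured 6.15, 7.70 and 7.98 in nuclear RNA against 3.16, 3.93 and 4.46 in cellular RNA. Again the groups did not overlap, with a gap of 1.69. Its log2 difference was 3.43, about 4.09 times the pooled SD within groups (0.84). The log2 profiles of WRKY18 and WRKY40 over the 6 arrays, each centred on its own mean, differed by a root mean square distance of 0.37, and of the other 9 members each was the nearest to the other.

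WRKY60 (AT2G25000_at), the third protein of group IIa and a partner of WRKY18 and WRKY40, did not share their pattern. It measured 1.86, 2.01 and 1.41 in nuclear RNA against 1.66, 1.90 and 1.69 in cellular RNA, below the array median on all 6. The groups overlapped and their means differed by 0.01. At so dim a level a difference could not be read from this table.

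WRKY33 (AT2G38470_at) controls synthesis of the defence compound camalexin and is a substrate of MAP kinases. Its values were 3.84, 3.31 and 4.99 in nuclear RNA (replicates 1 to 3) against 2.41, 3.01 and 2.14 in cellular RNA (replicates 1 to 3). The nuclear arrays lay above the cellular ones, but only by 0.30 at the nearest point. The means were 4.05 ± 0.86 and 2.52 ± 0.45 (SD, n = 3 each), a 2.89-fold difference that became 1.06 on the log2 scale without nuclear replicate 3, against 1.53 with all arrays. The gene overlaps AT2G38480 and a long non-coding locus in the RefSeq gene table, as WRKY40 does AT1G80850 and WRKY53 AT4G23800, and whether probes are shared with them was not tested.

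The group III members WRKY46, WRKY53 and WRKY70 act in salicylate responses and, in the case of WRKY53, in leaf senescence. WRKY46 (AT2G46400_at) measured 3.68, 4.12 and 5.90 in nuclear RNA against 1.27, 2.71 and 3.70 in cellular RNA. Its mean was 4.02-fold higher in nuclear RNA, but the groups overlapped, since cellular replicate 3 lay just above nuclear replicate 1. Its replicates were the most scattered of the 10 genes, with SDs of 1.17 and 1.22, and its log2 difference of 2.01 became 1.34 without nuclear replicate 3 and 1.37 without cellular replicate 1.

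WRKY70 (AT3G56400_at), a node between the salicylate and jasmonate pathways, measured 2.32, 2.21 and 2.62 in nuclear RNA against 1.70, 1.69 and 2.02 in cellular RNA. The groups did not overlap, yet only nuclear replicate 3 exceeded its array median, and the log2 difference was 0.58. WRKY53 (AT4G23810_at) measured 1.83, 2.14 and 1.73 in nuclear RNA against 2.07, 1.93 and 1.96 in cellular RNA. It stayed below the array median on all 6 arrays, and its groups overlapped.

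WRKY11 (AT4G31550_at), which restrains basal resistance, was bright in both kinds of RNA. It measured 7.03, 6.98 and 7.85 in nuclear RNA against 6.70, 7.26 and 6.91 in cellular RNA. The groups overlapped, and the log2 difference of 0.33 was below the pooled SD of 0.40. Of the 10 genes it was the one most moved by scaling: after cyclic loess normalization between arrays, which took the median of all genes from 0.13 to 0.02, its difference was 0.87.

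WRKY22 (AT4G01250_at), which acts below the flagellin receptor and a MAP kinase cascade, ran the other way. It measured 3.54, 3.57 and 3.23 in nuclear RNA against 4.56, 4.17 and 3.94 in cellular RNA, so that each nuclear array was below each cellular one. The nuclear mean was 1.71-fold below the cellular mean, a log2 difference of -0.78 that was -0.46 after cyclic loess. WRKY6 (AT1G62300_at), a factor of senescence and phosphate responses, measured 2.67, 2.27 and 2.62 in nuclear RNA against 2.47, 2.55 and 2.12 in cellular RNA, and its groups overlapped near the array medians.

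**Figure D1:**
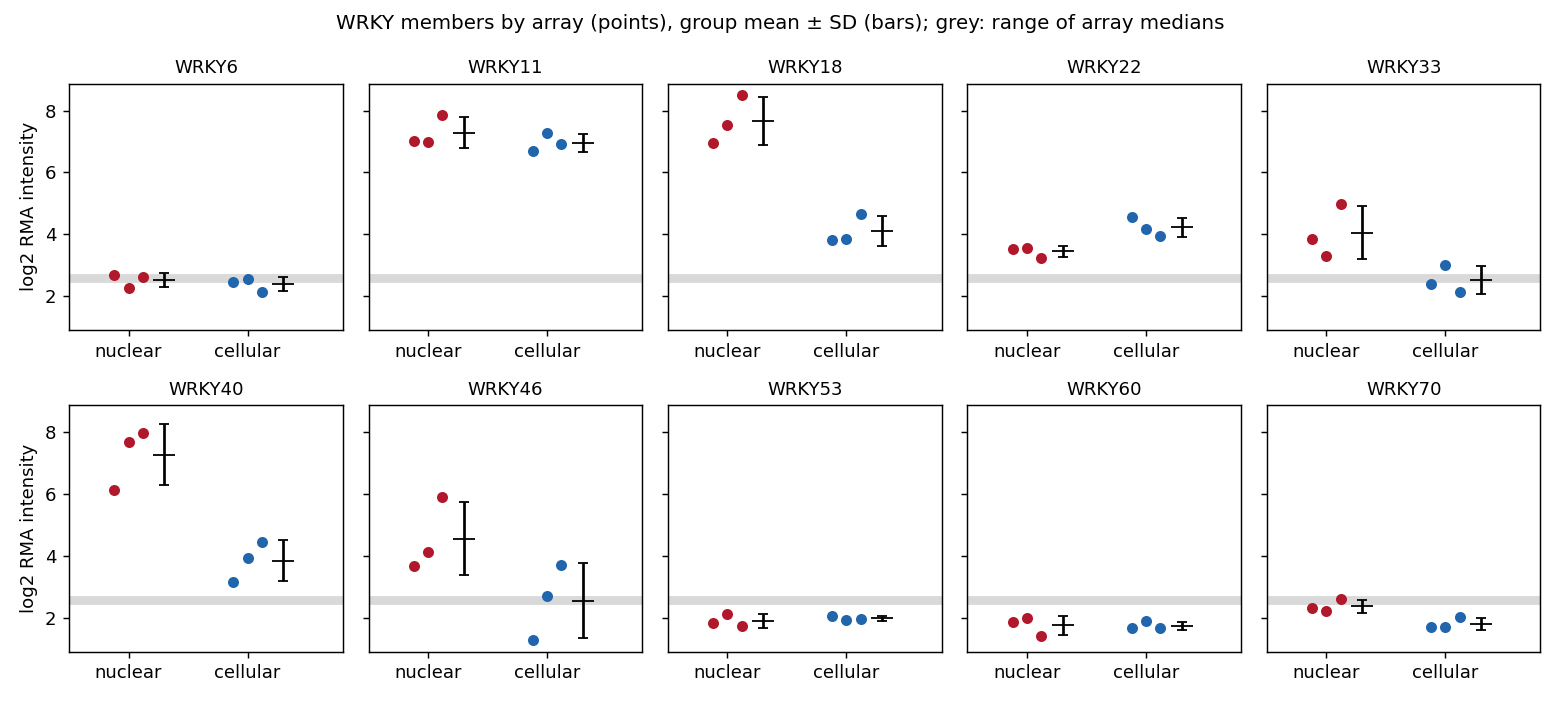
Log2 RMA intensity of the 10 WRKY genes on each nuclear (red) and cellular (blue) array, with the points of a group in the order of replicates 1 to 3, the group mean ± SD beside them (n = 3) and the range of the array medians, 2.46 to 2.68, in grey. WRKY18 and WRKY40 are separated by the widest gaps, WRKY11 is bright in both groups, and WRKY53 and WRKY60 lie below the grey band.

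Of the 10 genes, 4 had all nuclear arrays above all cellular arrays (WRKY18, WRKY33, WRKY40 and WRKY70), against 18.6% of all genes, and 1 had all nuclear arrays below (WRKY22), against 14.4%. Because the genes were listed with this contrast known, nothing is read from these shares. The median log2 difference of the 10 genes was 0.45, against 0.13 for all genes tested, and lay between 0.32 and 0.61 over the alternatives.

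The 10 genes were thus uneven: 4 were at least 2-fold higher in nuclear RNA, 4 lay within 0.5 of a log2 difference of 0, and the other two were WRKY70 and WRKY22. With each array left out in turn and after cyclic loess, all but WRKY6 and WRKY60 kept the sign of their difference. WRKY6 turned to -0.05 after cyclic loess. WRKY60 turned to -0.19 after cyclic loess and to as low as -0.12 with an array left out.

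**Figure D2:**
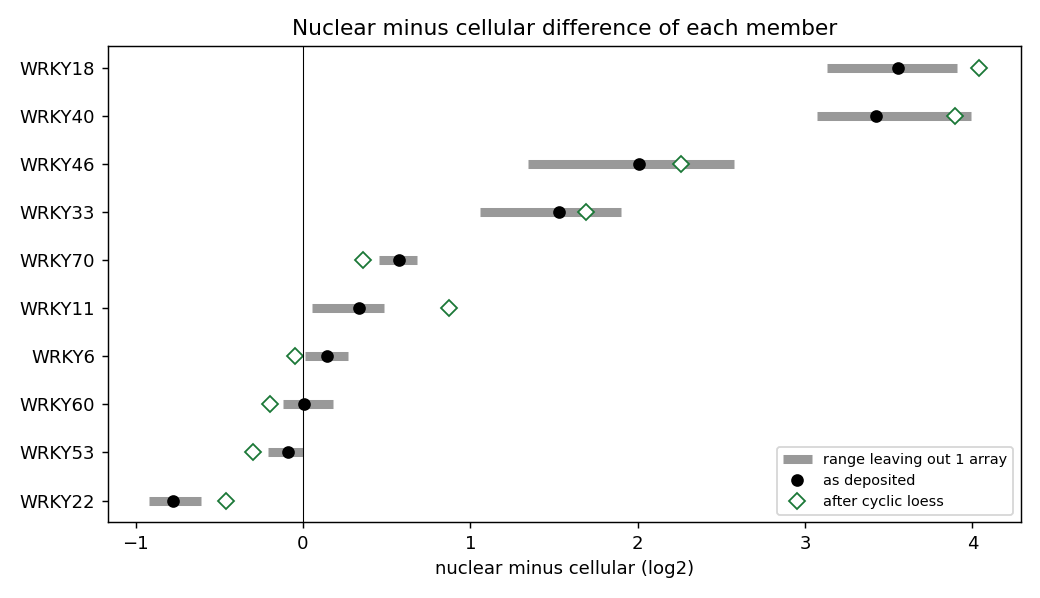
Nuclear minus cellular difference (log2) of each gene as deposited (black), after cyclic loess (green diamonds) and its range when each array is left out (grey bars). WRKY18, at 3.55, and WRKY40, at 3.43, stand to the right under each setting shown, and WRKY22, at -0.78, to the left.

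Within the nuclear group the arrays were not alike. Nuclear replicate 3 was the highest of the 3 for 6 of the 10 genes (WRKY11, WRKY18, WRKY33, WRKY40, WRKY46 and WRKY70), against 28.8% of all genes. Within the cellular group replicate 3 was the highest for 4 of them (WRKY18, WRKY40, WRKY46 and WRKY70), against 36.2% of all genes. Genes outside the family that are induced quickly by wounding, touch or elicitors, 22 in number, had medians of 3.46, 3.75 and 5.17 in nuclear RNA (replicates 1 to 3) against 2.95, 3.39 and 3.90 in cellular RNA (replicates 1 to 3), and so were also highest on the third array of each group.

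Markers of other tissues that the samples could hold were read on the same arrays. Of 17 seed coat genes, a maternal tissue around the embryo, 16 had a higher nuclear than cellular mean and 0 passed the limma test (4 were higher at an unadjusted p under 0.05), and their summed intensity ranged from 3098 to 7037 on the nuclear arrays and from 509 to 3821 on the cellular arrays. Of 10 genes of green tissue 5 were higher and 0 lower, against 1.15% and 4.71% of all genes, with summed intensities of 3407 to 4866 and 320.2 to 1144. Of 11 endosperm genes 0 were higher and 1 was lower, with summed intensities of 41.9 to 78.6 and 43.9 to 56.3. No marker was listed at 0, and the part of these tissues in the WRKY differences was not tested.

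The cellular maxima of both the seed coat and the green tissue sums, 3821 and 1144, came from cellular replicate 3. On the linear scale WRKY18 measured 25.2 on that array, 14.1 and 14.4 on the other cellular arrays and 123 to 364 on the nuclear arrays. WRKY40 measured 22.0 on it, 8.95 and 15.3 on the other cellular arrays and 71.0 to 253 on the nuclear arrays. Among the nuclear arrays both sums were highest on replicate 1, at 7037 and 4866. There WRKY18 and WRKY40 were at their lowest nuclear values, 123 and 71.0. On cellular replicate 3 WRKY46 was at its highest cellular value, 13.0, while WRKY33 was at its lowest, 4.39. A relation between these genes and the marker sums was not tested.

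**Figure D3:**
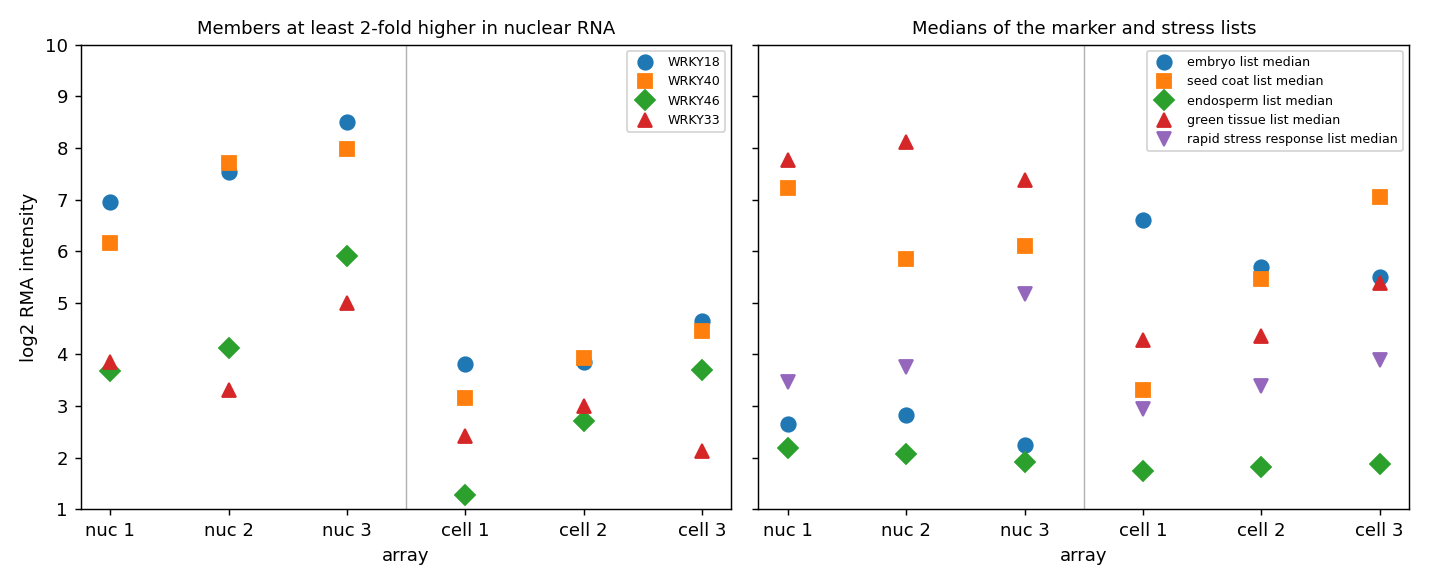
Log2 RMA intensity by array of the 4 genes at least 2-fold higher in nuclear RNA (left) and the median of the embryo, seed coat, endosperm, green tissue and rapid stress response lists (right). WRKY18 and WRKY40 are highest on nuclear replicate 3, at 8.51 and 7.98, where the rapid stress list is highest too, at 5.17, and the seed coat medians of the groups overlap.

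The other 62 WRKY genes, which the list did not take, were tested in the same fit. Of these 1 rose and 1 fell in nuclear RNA, against 1.15% and 4.71% of all genes, and 4 were higher and 5 lower at an unadjusted p under 0.05. Their median log2 difference was 0.15, against 0.13 for all genes. With cyclic loess normalization the 2 medians were -0.04 and 0.02, so the sign of the first turned. All nuclear arrays were above all cellular arrays for 14 of the 62 (22.6%, against 18.6% of all genes) and below for 6 (9.68%, against 14.4%). Many were dim: 31 of the 62 lay below the array median on all 6 arrays, and 4 lay above it on all 6. What is left after the 10 were taken out is not a random sample of the family.

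The gene that rose was WRKY48 (AT5G49520), a group IIc factor induced by stress that restrains defence against bacteria. It measured 5.83, 5.36 and 5.82 in nuclear RNA against 2.18, 1.94 and 2.29 in cellular RNA. The nuclear arrays lay close together and far above the cellular ones, which were below their medians. It rose 11.6-fold (3.54 on the log2 scale, SE 0.22, limma adjusted p = 0.00299) and passed under all 11 alternatives, with adjusted p from 0.00177 to 0.0307.

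The gene that fell was WRKY32 (AT4G30935), of group I. It measured 3.77, 3.13 and 3.15 in nuclear RNA against 5.95, 4.82 and 5.13 in cellular RNA, and the groups did not overlap. The change was -1.95 (SE 0.35, limma adjusted p = 0.0317). This call was lost under 6 of 11 alternatives, namely after cyclic loess (adjusted p = 0.0651) and without any single array other than nuclear replicate 1 (adjusted p up to 0.0970).

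Family genes with known roles in the seed did not pass. WRKY2, which sets the polarity of the zygote, measured 1.93, 2.05 and 2.23 in nuclear RNA against 4.48, 2.96 and 3.13 in cellular RNA. Its nuclear arrays were all lower, at a log2 difference of -1.46 (SE 0.42, limma adjusted p = 0.104). WRKY44, known as TTG2 for its part in seed coat and hair development, measured 5.33, 4.40 and 4.71 in nuclear RNA against 2.13, 3.08 and 5.30 in cellular RNA. Cellular replicate 3 was inside the nuclear range (limma adjusted p = 0.359), and without it the difference of 1.30 became 2.2 and passed (adjusted p = 0.0414). WRKY10, an endosperm factor also called MINI3, was dim on all 6 arrays, with a difference of 0.29.

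Close relatives of the 10 genes, named after their values were seen, did not pass either. WRKY17, which restrains basal resistance together with WRKY11, had a log2 difference of -0.81 (SE 0.66), which was -0.10 without nuclear replicate 1. WRKY29, which acts with WRKY22, had one of 0.46 (SE 0.25), and WRKY27 one of 0.48 (SE 0.21). The group I relatives of WRKY33, WRKY25 and WRKY26, were at -0.36 and -0.13. WRKY54, which acts with WRKY46 and WRKY70, was at 0.15, WRKY41, the relative of WRKY53, at -0.47, and the relatives of WRKY6, WRKY31 and WRKY42, at -0.20 and 0.38. Their limma adjusted p lay between 0.196 for WRKY41 and 0.814 for WRKY26.

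By group, the other WRKY genes had median log2 differences of -0.06 in group I (13 genes), 0.18 in IIb (7), 0.15 in IIc (18), -0.63 in IId (6), 0.41 in IIe (6) and 0.13 in group III (10). After cyclic loess these medians were -0.08, 0.04, -0.03, -0.32, 0.20 and -0.06, so those of IIc and III turned, and that of group I was -0.35 without nuclear replicate 3. Group IIa has no genes beyond the 3 members. Differences between groups were not tested.

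**Figure D4:**
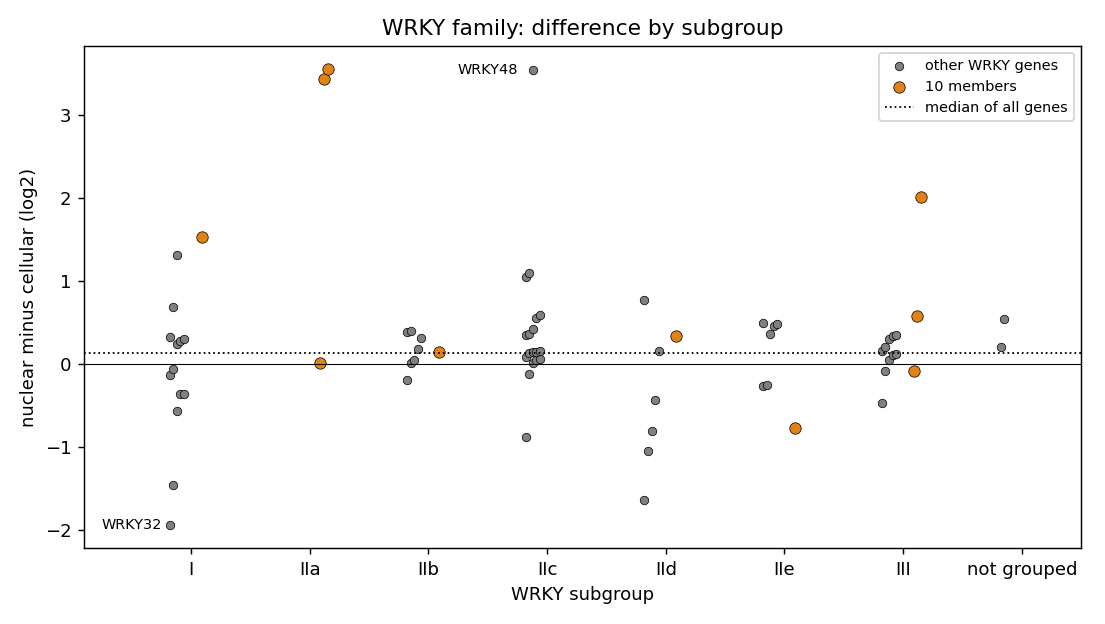
Nuclear minus cellular difference (log2) of the 10 WRKY genes (orange) and the 62 other family genes (grey) by family group, with the median of all genes, 0.13, as a dotted line. WRKY48, at 3.54, and WRKY32, at -1.95, are the grey points past the limma threshold.

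Upstream of these factors, MAP kinase cascades pass on signals from receptors to WRKY22 and WRKY33. Of 12 cascade genes 0 rose and 1 fell, against 1.15% and 4.71% of all genes. At an unadjusted p under 0.05 (limma) 2 were higher and 2 lower. Their median log2 difference was 0.42, against 0.13 for all genes. The fall was that of MPK4, a kinase that holds WRKY33 in a complex until defence is triggered, which measured 4.59, 3.42 and 4.01 in nuclear RNA against 5.91, 5.29 and 5.91 in cellular RNA. Its change was -1.70 (SE 0.35, limma adjusted p = 0.0464), and it was lost under 8 of 11 alternatives (adjusted p up to 0.152). MPK3, a kinase that phosphorylates WRKY33, measured 5.47, 5.65 and 7.66 in nuclear RNA against 3.57, 4.37 and 4.36 in cellular RNA. The groups did not overlap, and its difference of 2.16 did not pass (SE 0.62, limma adjusted p = 0.103). Among 5 VQ proteins, which bind WRKY factors, none passed (0 at an unadjusted p under 0.05, limma), against 1.15% higher and 4.71% lower of all genes. The lowest p were those of SIB2, with a log2 difference of -0.61, and MKS1, the partner that links WRKY33 to MPK4, with 0.41, which was 0.97 without nuclear replicate 1 and -0.01 without nuclear replicate 2.

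No gene reported as a target of the 10 factors in other tissues passed in the 3 lists that hold such genes or markers of their pathways. Among all genes only 1.15% were higher and 4.71% lower. In lists this short the lack of calls is therefore not read as a result about the targets. Of 10 genes of camalexin, ethylene and abscisic acid synthesis 0 passed (limma; 3 were higher at an unadjusted p under 0.05), and the median difference was 0.20. PAD3, the last enzyme of camalexin synthesis, measured 2.08, 2.22 and 1.82 in nuclear RNA against 2.46, 1.61 and 1.49 in cellular RNA. PAD3, named after its values were seen, was below the array medians on all nuclear arrays, and its relation to WRKY33 was not tested. The lowest p were those of NCED3, of abscisic acid synthesis, with a difference of 1.02 (limma adjusted p = 0.0857), and ACS6, of ethylene synthesis, with 2.84 (adjusted p = 0.106). ACS6 measured 6.57 on cellular replicate 3, against 3.19 and 4.20 on the other cellular arrays and 7.16 to 7.68 on the nuclear ones, and passed without that array (adjusted p = 0.00932).

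Of 12 genes of the salicylate branch 0 passed (1 was higher at an unadjusted p under 0.05, limma). All 12 nuclear means lay above the cellular ones, as did those of 16601 of all 27241 genes. The median difference was 0.36 as deposited and 0.16 after cyclic loess, against 0.13 and 0.02 for all genes. Only 3 of the 12 had a mean above 2.56 in either group, so the rest were dim. The lowest p were those of GRX480, a glutaredoxin, with 0.81 (limma adjusted p = 0.156), and SAG101, a partner of EDS1, with 1.03 (adjusted p = 0.246). PR1, the standard marker of the salicylate response, stayed between 1.41 and 2.35 on all arrays. Of 12 other reported targets or markers 0 passed (limma; 1 was higher at an unadjusted p under 0.05), and the median difference was 0.27. Among these, JAZ8, a jasmonate repressor gene bound by WRKY40, was at 1.17 (limma adjusted p = 0.143, and 0.0261 without nuclear replicate 1), and CYP81F2, of indole glucosinolate synthesis, at 0.41.

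Of the 22 rapid stress genes outside the family 3 rose and 0 fell, against 1.15% and 4.71% of all genes, and their median difference was 1.1, or 0.58 without nuclear replicate 3. JAZ1, a jasmonate repressor, measured 7.99, 7.18 and 8.62 in nuclear RNA against 4.41, 5.86 and 5.89 in cellular RNA, a change of 2.54 (SE 0.54, limma adjusted p = 0.0480). MYC2, the main transcription factor of jasmonate responses, measured 8.17, 8.87 and 9.14 in nuclear RNA against 5.48, 5.98 and 7.34 in cellular RNA, a change of 2.46 (SE 0.52, limma adjusted p = 0.0495). In both genes all nuclear arrays were above all cellular ones. SZF1, a zinc finger gene of salt and defence responses named after its values were seen, changed by 1.66 (SE 0.33, limma adjusted p = 0.0402). These calls were close to the threshold: 0 of the 73 genes in all lists rose without nuclear replicate 2 or 3 or without cellular replicate 1 or 2.

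Among genes outside the 10 whose brighter group lay above 2.56, the median of all values, those whose profiles over the 6 arrays lay closest to the mean profile of the 10, each centred on its own mean, were BEH4, of the family of brassinosteroid response factors, at a root mean square distance of 0.07 on the log2 scale, AT1G15260 at 0.10, CYP714A1, a cytochrome P450, at 0.12, SQE6, a squalene epoxidase, at 0.13, and AT4G32060 at 0.14. The first 4 of these passed that limit through their nuclear mean alone, with cellular means of 1.93 to 2.23, below the array medians. The mean profile was 0.24, 0.44 and 0.93 in nuclear RNA (replicates 1 to 3) against -0.77, -0.45 and -0.39 in cellular RNA (replicates 1 to 3). WRKY70, at 0.29, was the member closest to it, and WRKY18, at 1.28, the farthest.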

How the data were processed

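RNA of 16-cell embryos was labelled as biotinylated cDNA (4.25 ug per array) and hybridised to 6 arrays. Per the submitters' processing notes, RMA was used, and the authors deposited the resulting intensity of each locus. The RMA version, array type, probe set definitions and genome build are not given in the sources used here, so no coordinates are printed. The values lie on a linear scale, and log2 was taken with no second normalization. Of 27826 rows, 27241 matched a locus of the RefSeq gene table (assembly TAIR10.1) and entered a linear model in limma 3.58.1 (R 4.3.3; lmFit, eBayes; degrees of freedom were 4 residual and 2.33 prior; nuclear minus cellular, Benjamini-Hochberg over all rows fitted). The other 585 rows were left out.

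The 10 genes, the gene lists and the tests were chosen with earlier results of these data known. Family genes were those with WRKY and a number as RefSeq symbol or synonym. Family groups follow the published classification, from background knowledge. Of 82 listed pathway genes 73 were used, since 9 loci did not carry the listed name. Named were the members, family genes past the threshold, WRKY2, WRKY10 and WRKY44, up to 2 rises and 2 falls per list (or the 2 lowest p), and the 5 closest profiles among genes whose brighter group lay above 2.56, the overall median. Relatives of members, SZF1, MPK3, PAD3 and PR1 were named after their values were seen. The fit was tested on simulated data. Alternatives were cyclic loess, a filter on dim genes, a trended robust variance, all rows, a replicate block and each array left out.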

Additional observations from a re-analysis of the deposited data

How the results depend on the processing

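Counts over all genes moved with the setting: the 313 higher and 1284 lower genes became 491 and 863 after cyclic loess (lower genes made up 80.4% of calls as deposited and 63.7% after it), and leaving out 1 array at a time gave 28 to 419 higher and 254 to 1688 lower. The samples of a group share replicate numbers with the other group, but same-numbered arrays did not deviate together (correlations of -0.05, -0.06 and -0.01), so the numbers were not taken as pairs. With the replicate number as a block 118 genes were higher and 571 lower, and of the 73 pathway genes 1 was higher and 0 lower. That block lost the calls of MPK4, JAZ1 and SZF1 and left those of WRKY48, WRKY32 and MYC2. Among the 62 other WRKY genes 1 to 2 were higher and 0 to 1 lower with 1 array left out, and 0 were lower after cyclic loess. Among the pathway genes 0 to 4 were higher and 0 to 1 lower with 1 array left out, against 3 and 1 with all arrays, and 0 were lower after cyclic loess or with the trended robust variance. The cause of these moves was not tested. Each fit without an array had fewer samples. Total calls in those fits ran from 282 without cellular replicate 2 to 2107 without cellular replicate 3, against 1597 with all arrays. The median difference of the 10 members kept its sign under all 7 settings tried for it. The genes were listed with this contrast known, so nothing is read from that sign. After cyclic loess 4 members (WRKY11, WRKY22, WRKY53 and WRKY70) moved by more than their pooled SD. Signal over background limits WRKY6, WRKY53, WRKY60 and WRKY70, which lay near or below the array medians. It also limits the folds of WRKY33 and WRKY46, whose cellular means, 2.52 and 2.56, lay near those medians. On cellular replicate 1 WRKY46 was at 1.27. The planned W-box and protein comparisons were not run, since sequences were not used here.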
